A study of Mus musculus with 9 samples.

Results

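The EGF receptor family of the mouse was examined in isolated glomeruli through 9 genes chosen by name. They are the receptors Egfr, Erbb2, Erbb3 and Erbb4 and the ligands Egf, Tgfa, Hbegf, Btc and Areg. A row was found for 8 of the 9 among the 16867 genes of the deposited table, and Areg, the gene for amphiregulin, was not analysed here. Poly(A) RNA came from 5 control and 4 Cosmc KO animals, all C57BL/6 males aged 30 to 35 days, whose glomeruli were collected by perfusion with magnetic beads. Every Cosmc KO animal was Podo-Cre; Cosmc Y/flox, so that the X-linked Cosmc allele is deleted where the Podo-Cre transgene is active, in podocytes. Controls 1, 4 and 5 were Podo-Cre; Cosmc Y/+, control 2 was Cosmc Y/flox without Cre, and control 3 was Cosmc Y/+ without Cre. Cosmc KO 1 to 4 were 35, 34, 31 and 30 days old, as were controls 1 to 4, and control 5 was 30 days old. The preparation also holds cells in which Podo-Cre is not active.

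The receptors are tyrosine kinases of the cell surface that pair with each other when a ligand binds, and they then feed the Ras, ERK and PI3-kinase pathways. The ligands are made as membrane-bound precursors and are released by proteases of the ADAM family. In the kidney Egf is made mainly by the thick ascending limb and the distal convoluted tubule, and Egfr is found along the nephron. In mice with crescentic glomerulonephritis, HB-EGF acting through Egfr on podocytes worsens the disease.

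Values below are normalized counts, meaning reads per gene after division by the size factor of the library. Errors of means are SDs over the 5 control and 4 Cosmc KO animals. A difference is the mean log2(value + 1) of Cosmc KO minus that of the controls, with its SE from limma, and p-values were adjusted by Benjamini-Hochberg over 16764 genes. A gene was called below an adjusted p of 0.05. Libraries held 31.5 to 58.1 M reads over the listed genes. C1galt1c1, the symbol of Cosmc, fell by 0.63 ± 0.11 on the log2 scale (adjusted p = 0.0111), from 1385 to 1552 in the controls to 751 to 1123 in Cosmc KO, with no overlap. It was not called against the Cre-carrying controls alone (-0.61, adjusted p = 0.0816). Markers of the labelled tissue were present in every library. Of the 12 podocyte markers 11 had a negative difference, and limma called 6 lower and none higher, against 3.58% and 4.16% of all genes. With Cre-carrying controls only 1 of the 12 was called lower, beside 2.58% of all genes called. None was called with Cosmc KO 2 and 3 left out, beside 1.62% of all genes. The podocyte marker score of Cosmc KO 1, at 15.26, lay within the control range of 15.24 to 15.80. None of the 15 proximal tubule markers was called by limma, with 4 at an unadjusted p under 0.05, while all 15 had a positive difference and a median of 1.42. DESeq2 called 3 of the 15 higher, beside 16% of all genes called. Neither edgeR (8.69% of all genes) nor limma-voom (9.91%) called any. Without Cosmc KO 1 limma called 14 of the 15 higher, beside 29.1% of all genes called. It also called 14 higher with the replicate block and control 5 left out, beside 16.7% of all genes. Cosmc KO 2 and 3 stood apart, with the lowest podocyte and the highest proximal tubule marker scores of the 9 libraries.

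To place the members beside each other, normalized counts were divided by the length of the gene's exons in kilobases. Among the receptors of the controls, Erbb2, which has no known ligand of its own and serves as a partner, had the highest level at 498 ± 43.2 per kb. Erbb3, which binds neuregulins and has little kinase activity, followed at 135 ± 16.8 per kb. Erbb4 stood at 42.7 ± 9.97 per kb and Egfr at 28 ± 10.3 per kb. The ranges of Erbb4 (29.9 to 50.5 per kb) and Egfr (17.2 to 42.1 per kb) overlapped among the controls, so this pair was not ordered beyond its spread, while the other neighbours were separate. In Cosmc KO the level of Erbb2 was 531 ± 116 per kb, that of Erbb3 206 ± 76 per kb, that of Egfr 58.2 ± 37.7 per kb and that of Erbb4 40 ± 5.98 per kb. There the order of Egfr and Erbb4 differed from the controls, with overlapping ranges (23.6 to 91.6 against 34.1 to 47.5 per kb).

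Among the ligands of the controls, Egf was the most abundant at 4822 ± 1528 per kb. Tgfa, which encodes TGF-alpha, an Egfr ligand, had 481 ± 96.5 per kb and Hbegf, a ligand of Egfr and Erbb4, had 346 ± 33 per kb. Btc, betacellulin, also a ligand of Egfr and Erbb4, was lowest at 21 ± 5.84 per kb. The control ranges of all 4 ligands were separate, those of Tgfa (400 to 635 per kb) and Hbegf (309 to 393 per kb) narrowly so. In Cosmc KO, Hbegf at 374 ± 34.2 per kb stood above Tgfa at 264 ± 104 per kb, with ranges that overlapped (351 to 424 against 166 to 402 per kb). Egf had 3471 ± 421 per kb and Btc 30 ± 8.54 per kb in Cosmc KO.

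**Figure D1:**
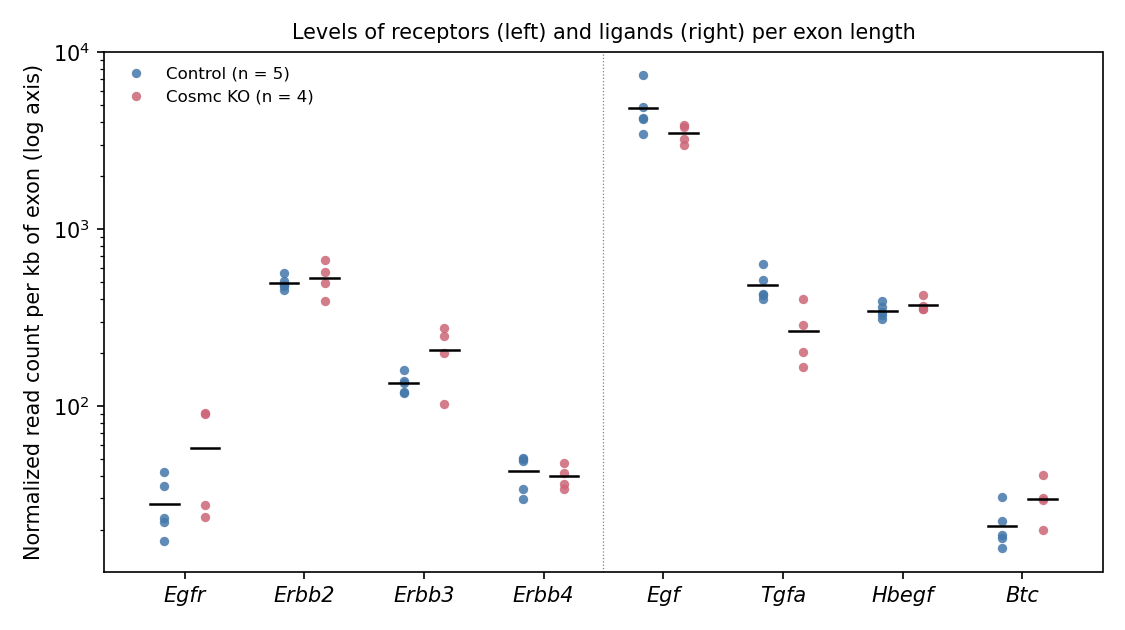
Level of each member per kilobase of exon (normalized count per kb, log axis) in 5 control (blue) and 4 Cosmc KO (red) libraries; points are libraries and lines are group means. Egf is the highest of the 8 members in both groups, Erbb2 the highest receptor, and Tgfa lies above Hbegf in the controls with mean levels of 481 against 346 per kb.

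As a share of the summed per-kb level of the 4 ligands, Tgfa made up 8.98% ± 2.95 in the controls and 6.48% ± 2.93 in Cosmc KO. Hbegf made up 6.39% ± 1.68 and 9.11% ± 1.4. Egf held 84.3% ± 4.42 and 83.7% ± 3.13. Btc was a small part in both groups, and its share was 0.299% to 0.411% in the controls and 0.524% to 1.05% in Cosmc KO, without overlap. This share also depends on the other ligands in the sum, mostly Egf. The normalized counts of Btc did overlap, at 70.9 to 138 in the controls and 89.4 to 184 in Cosmc KO. Among the receptors Erbb2 held 70.8% ± 2.7 of the summed per-kb level in the controls and 64.3% ± 4.51 in Cosmc KO. Egfr held 3.95% ± 1.31 and 6.46% ± 2.95. These shares are descriptions and were not tested.

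The sequences just upstream of 3 members are shown because these are the called ligand, the most abundant ligand and the receptor for both. Each is the 250 bases before the RefSeq start on GRCm38.p6, read 5′ to 3′ on the gene's strand, with the letters GGGCGG on either strand, the GC box, in capitals. Tgfa is at chr6:86194972-86195221 on the plus strand, Egfr at chr11:16751953-16752202 on the plus strand, and Egf at chr3:129755323-129755572 on the minus strand.
Tgfa: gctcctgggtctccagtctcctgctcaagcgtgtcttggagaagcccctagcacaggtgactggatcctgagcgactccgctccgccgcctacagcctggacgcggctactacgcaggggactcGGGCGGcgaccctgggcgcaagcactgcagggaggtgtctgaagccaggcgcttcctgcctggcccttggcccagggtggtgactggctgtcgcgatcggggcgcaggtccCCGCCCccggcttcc
Egfr: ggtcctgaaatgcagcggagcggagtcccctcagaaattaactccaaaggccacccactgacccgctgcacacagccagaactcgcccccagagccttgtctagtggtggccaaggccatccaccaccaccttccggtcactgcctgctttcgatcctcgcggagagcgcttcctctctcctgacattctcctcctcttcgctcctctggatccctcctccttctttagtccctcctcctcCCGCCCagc
Egf: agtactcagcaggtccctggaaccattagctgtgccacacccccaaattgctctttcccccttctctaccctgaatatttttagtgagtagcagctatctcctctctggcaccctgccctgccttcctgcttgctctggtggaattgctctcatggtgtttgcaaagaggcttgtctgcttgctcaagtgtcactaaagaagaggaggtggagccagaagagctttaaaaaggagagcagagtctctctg
The Tgfa window has a GC content of 69.2% with 19 CpG and 2 GC boxes, and the Egfr window has 60.8% with 11 CpG and 1 GC box. The Egf window has 50.4%, no CpG and no GC box. Over 32851 promoter windows of the same length the median GC content was 52.4% with 6 CpG, and 32.7% held a GC box. Neither the AP-1 motif TGANTCA (6.75% of all windows) nor the EGR1/WT1 motif GCGNGGGCG (4.7%), both searched on both strands, was found in these 3 windows. The end of the EGR1/WT1 motif can overlap a GC box. The matches are descriptions of letters.

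Of the 8 members, 1 was called in Cosmc KO against control, Tgfa, which was lower. The background is 7.74% of all genes called, with 4.16% higher and 3.58% lower. No member was called higher by limma, by edgeR, by DESeq2 or by limma-voom, and limma gave an unadjusted p under 0.05 for Tgfa alone of the members, against 4603 of the 16764 genes. The number of members with an unadjusted p under 0.05 was 4 in edgeR, 5 in DESeq2 and 2 in limma-voom. None of the 8 had groups without overlap, against 11.9% of all genes tested. The median difference was 0.09 over the members, -0.16 over the ligands, 0.30 over the receptors and 0.00 over all genes.

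Tgfa is on chromosome 6 from 86195223 to 86275719, plus strand, in GRCm38, and 118 bases of its exons are shared with the opposite-strand gene Gm43917. Its normalized counts were 4122, 2789, 2594, 2759 and 3343 in controls 1 to 5, a mean of 3121 ± 626. In Cosmc KO 1 to 4 they were 2607, 1078, 1319 and 1854, a mean of 1714 ± 678. Cosmc KO 2, 3 and 4 lay below every control, and Cosmc KO 1, at 2607, lay just above control 3, the lowest control. The difference was -0.93 ± 0.24 (95% interval -1.47 to -0.38, adjusted p = 0.047), or 0.527 of the control level. In these bulk samples, fewer cells of a type and less RNA per cell cannot be told apart.

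The call for Tgfa lies close to the threshold. edgeR's quasi-likelihood test gave -0.89 (adjusted p = 0.0495), DESeq2 gave -0.86 (adjusted p = 0.011), and the authors' deposited table lists -0.87 (adjusted p = 0.011). The deposited Wald test rests on the same reads as the DESeq2 run, so its value is no separate support for the Tgfa call. Dropping any 1 of controls 1 to 5 or Cosmc KO 2, 3 and 4 ended the call (adjusted p = 0.0675 to 0.144 in limma), and without Cosmc KO 1 it was -1.15 (adjusted p = 0.00503). With Cosmc KO 2 and 3 both left out it was -0.48 (adjusted p = 0.336), and with the Cre-carrying controls alone -1.05 (adjusted p = 0.109). The members' calls are read against the share of all genes called in each fit. Tgfa alone of the 8 was called by edgeR (8.69% of all genes), DESeq2 (16%), limma-voom (9.91%) and the limma fit with the replicate block and control 5 left out (16.7%). No member was called with Cre-carrying controls only (2.58%), without Cosmc KO 2 and 3 (1.62%), or with the proximal tubule (5%) or podocyte score (2.17%) as a covariate in limma. Without Cosmc KO 1, Tgfa and Erbb3 were called beside 29.1% of all genes, and with the thick limb and distal convoluted tubule score 4 members were called, Tgfa, Egfr, Erbb3 and Btc, beside 33.2% of all genes.

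The podocyte markers moved with Tgfa. As log2 difference from the control mean, the podocyte marker score was 0.36, -0.17, -0.20, -0.10 and 0.13 across controls 1 to 5, against -0.18, -1.53, -0.99 and -0.66 across Cosmc KO 1 to 4. The same difference for Tgfa was 0.42, -0.14, -0.25, -0.16 and 0.12, then -0.24, -1.51, -1.22 and -0.73. The summed normalized count of the 12 markers was 899677 to 1324813 in the controls and 384228 to 1011994 in Cosmc KO, and no marker was at 0. With this score as a covariate, added after seeing the data, the Tgfa difference was -0.09 (adjusted p = 0.763). The score itself nearly separated the groups, at 13.91 to 15.26 in Cosmc KO against 15.24 to 15.80 in the controls. With it limma called 364 genes, against 1298 without it. This fit cannot tell score from group, and the part of podocyte content in the Tgfa difference was not tested. With the score of the proximal tubule markers as a covariate the Tgfa difference was -0.49 (adjusted p = 0.081), and with the thick limb and distal convoluted tubule score -1.13 (adjusted p = 0.000676). The genes most like Tgfa over the 9 libraries were Rgs5, at a mean distance of 0.0845 SD, and Cdc42se2, at 0.0893 SD, both called lower in limma (-0.91 and -0.55, adjusted p = 0.0377 and 0.0409). Both were picked for a pattern that includes the group difference, so their calls are no separate support for that of Tgfa.

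**Figure D2:**
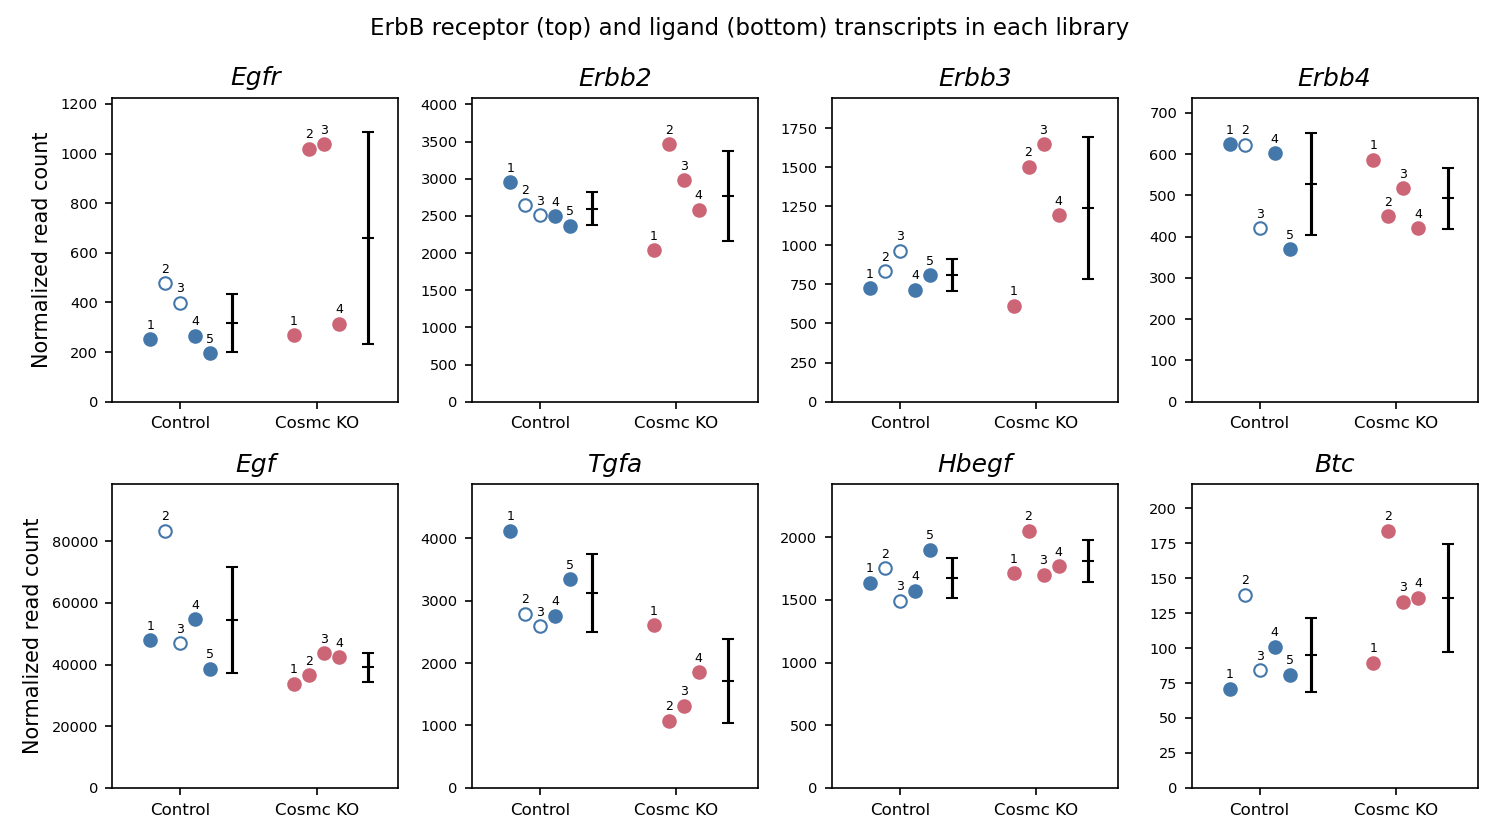
Normalized counts of the 8 members by library, on a linear axis for each gene. Filled circles are Cre-carrying libraries, open circles the Cre-free controls 2 and 3, and bars are means ± SD; Tgfa was 3121 in the controls and 1714 in Cosmc KO.

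Egf, the most abundant member, is on chromosome 3 from 129677565 to 129755316, minus strand. Its normalized counts were 47901, 83447, 46980, 54794 and 38713 in controls 1 to 5. They were 33822, 36502, 43760 and 42473 in Cosmc KO 1 to 4, with means of 54367 ± 17228 and 39139 ± 4750. Control 2 was the highest library, 2 of the 4 Cosmc KO libraries lay below all controls, and the groups overlapped. The difference of -0.43 ± 0.21 (95% interval -0.89 to 0.03) was not called (adjusted p = 0.206 in limma). Without control 2 it was -0.26 (adjusted p = 0.279), and with Cre-carrying controls only it was also -0.26 (adjusted p = 0.386). Its adjusted p was 0.0611 to 0.51 over the alternatives, with no call in any of the 25. Of the thick limb and distal convoluted tubule markers 1 of 13 was called, Pvalb, which was lower, against 3.58% of all genes called lower. Of these markers 8 had a negative and 5 a positive difference, with a median of -0.41 and a range of -2.24 to 1.07. Their summed normalized count was 120956 to 247584 in the controls and 81480 to 200347 in Cosmc KO. The exons of Egf share 1107 bases with opposite-strand genes, and since the strandedness of the counting is not given in the sources used here, reads of these genes may not be separated.

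Hbegf, on chromosome 18, varied least among the ligands. Its normalized counts were 1636, 1750, 1492, 1573 and 1901 across controls 1 to 5, against 1713, 2052, 1699 and 1768 across Cosmc KO 1 to 4. The groups overlapped, and the coefficient of variation was 9.55% in the controls and 9.16% in Cosmc KO. The difference was 0.11 ± 0.09 (95% interval -0.09 to 0.32, adjusted p = 0.439 in limma).

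Btc, on chromosome 5 from 91357261 to 91402994, minus strand, had the fewest reads of the members, 67 to 205 per library. Its normalized counts were 70.9, 138, 84.1, 101 and 80.9 across controls 1 to 5, against 89.4, 184, 133 and 136 across Cosmc KO 1 to 4. Controls 2 and 4 overlapped the Cosmc KO libraries, and the difference was 0.50 ± 0.25 (95% interval -0.06 to 1.07, adjusted p = 0.225 in limma). With the thick limb and distal convoluted tubule score as a covariate it was 0.71 and called (adjusted p = 0.0114), beside 33.2% of all genes.

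Among the receptors, Egfr, on chromosome 11 from 16752203 to 16918158, plus strand, varied most between libraries. Its normalized counts were 252, 477, 399, 265 and 195 across controls 1 to 5, against 267, 1020, 1037 and 314 across Cosmc KO 1 to 4. Cosmc KO 2 and 3 were high and Cosmc KO 1 and 4 lay within the control range. The difference was 0.86 ± 0.46 (95% interval -0.16 to 1.87, adjusted p = 0.246 in limma). The proximal tubule score stood 2.38 and 2.34 above the control mean in these same libraries on the log2 scale, against -0.55 in Cosmc KO 1 and 1.35 in Cosmc KO 4. The summed normalized count of its 15 markers was 50187 to 243208 in the controls and 79093 to 704837 in Cosmc KO, with none at 0. With that score as a covariate the Egfr difference was 0.05 (adjusted p = 0.953), and with Cosmc KO 2 and 3 left out it was -0.06 (adjusted p = 0.958). With the thick limb and distal convoluted tubule score as a covariate it was 1.24 and called (adjusted p = 0.00714), beside 33.2% of all genes.

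Erbb3, on chromosome 10 from 128567523 to 128589652, minus strand, was also uneven between the Cosmc KO libraries, with normalized counts of 725, 835, 965, 715 and 808 across controls 1 to 5, against 615, 1502, 1646 and 1192 across Cosmc KO 1 to 4. Cosmc KO 2, 3 and 4 lay above every control and Cosmc KO 1 below every control. The difference was 0.53 ± 0.26 (95% interval -0.04 to 1.10, adjusted p = 0.209 in limma). Without Cosmc KO 1 it was 0.83 and called (adjusted p = 0.00429), beside 29.1% of all genes. With the score of the proximal tubule markers as a covariate it was 0.11 (adjusted p = 0.81). With the thick limb and distal convoluted tubule score it was 0.74, called (adjusted p = 0.00573) beside 33.2% of all genes.

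Erbb2 lies on chromosome 11 from 98412470 to 98437716, plus strand, and its normalized counts were 2955, 2652, 2507, 2497 and 2367 across controls 1 to 5, against 2037, 3463, 2984 and 2582 across Cosmc KO 1 to 4. Cosmc KO 1 was the lowest and Cosmc KO 2 the highest of the 9 libraries, and the difference was 0.07 ± 0.14 (95% interval -0.25 to 0.38, adjusted p = 0.774 in limma). Erbb4, the other neuregulin receptor, on chromosome 1 from 68032186 to 69108059, minus strand, had normalized counts of 624, 623, 421, 603 and 369 across controls 1 to 5, against 587, 450, 517 and 421 across Cosmc KO 1 to 4. All Cosmc KO values lay within the control range, and the difference was -0.07 ± 0.19 (95% interval -0.49 to 0.35, adjusted p = 0.82 in limma).

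**Figure D3:**
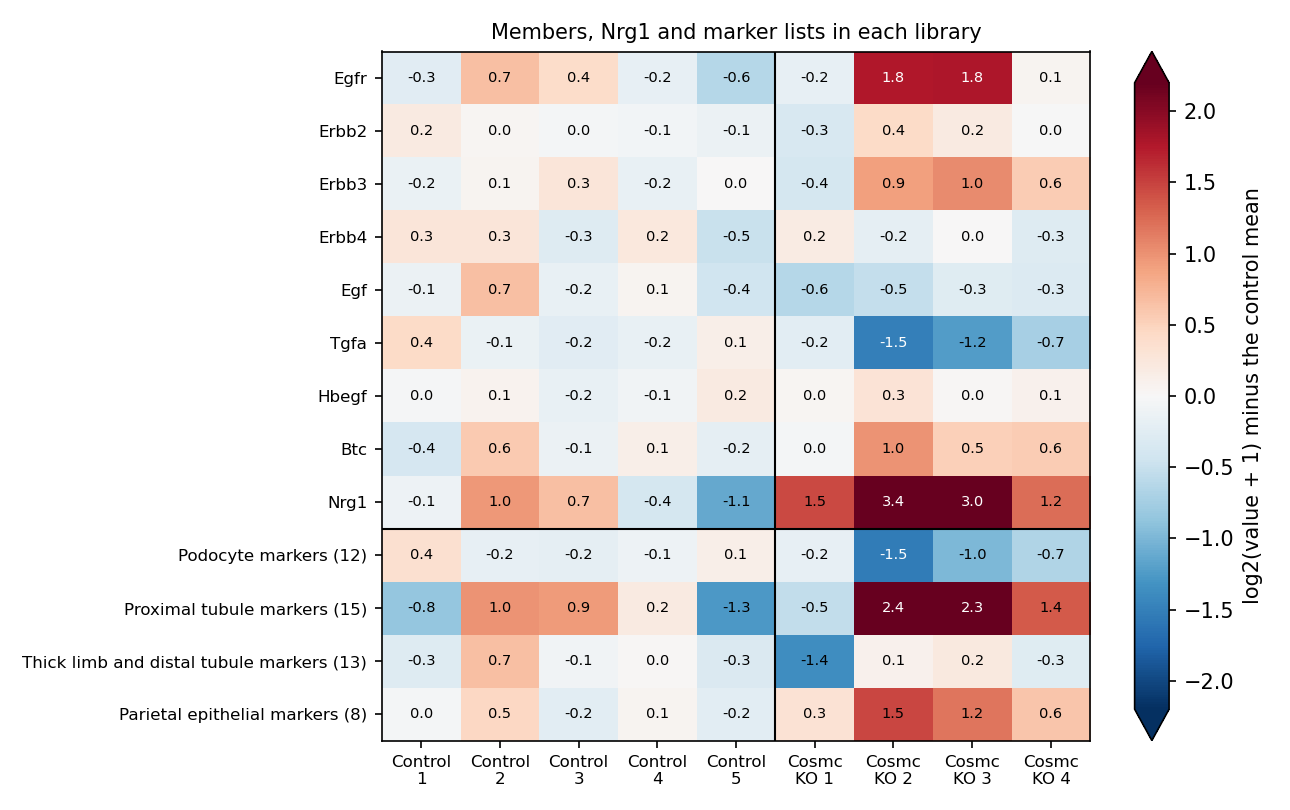
Log2(value + 1) minus the control mean for each member, Nrg1 and 4 marker lists (rows) in each library (columns), coloured from low to high. Tgfa and the podocyte markers are lowest in Cosmc KO 2 and 3 (-1.51 and -1.22 for Tgfa), where Egfr and the proximal tubule markers are highest.

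Ages were matched by number, so the members could also be read within the 4 same-age pairs. Tgfa was lower in Cosmc KO in all 4 pairs (-0.66, -1.37, -0.98 and -0.57 for pairs 1 to 4), as was Egf (-0.50, -1.19, -0.10 and -0.37). By comparison 19.4% of all genes were lower in all 4 pairs. Egfr, Hbegf and Btc were higher in all 4 pairs, against 18.6% of all genes, and Egfr ranged from 0.08 to 1.38. Erbb3 differed by -0.24, 0.85, 0.77 and 0.74, and Erbb2 and Erbb4 had both signs.

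Among the controls, the Cre-carrying animals were compared with the Cre-free ones. These groups differ by more than the transgene, since Cre-free control 2 is Cosmc Y/flox and ages are 35, 30 and 30 days against 34 and 31 days, so Cre, allele and age cannot be told apart. None of the 8 was called, against 0% of all 16084 genes in limma, with 1283 genes and 1 member at an unadjusted p under 0.05. edgeR also called 0 genes and 0 members, with 1312 genes and 1 member at an unadjusted p under 0.05. The member was Egfr, which was 237 in the 3 Cre-carrying and 438 in the 2 Cre-free controls (-0.89 ± 0.20, unadjusted p = 0.00397, adjusted p = 0.377 in limma). Controls 2 and 3 also had the highest proximal tubule scores among the controls, and the part of tubule content in this difference was not tested.

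The patterns of the other members over the 9 libraries were compared with the same 12174 genes as for Tgfa, those with a mean of at least 100. The closest genes to Egfr were Mpp1 and Dbi, at mean distances of 0.133 and 0.135 SD, and to Erbb3 Slc29a3 and Aes at 0.16 and 0.174 SD. For Erbb2 they were Wdr18 and Pfkl at 0.168 and 0.215 SD, and for Btc Sqle and Carmil1 at 0.151 and 0.184 SD. Egf was closest to Prps2 and Tsc22d2 at 0.221 and 0.227 SD, Erbb4 to Smcr8 and Atp13a3 at 0.219 and 0.317 SD, and Hbegf to Haus8 and Snx30 at 0.273 and 0.332 SD. Hbegf thus had the least close neighbours and Tgfa the closest. These distances are descriptions over 9 libraries that vary in depth and in tubule marker scores, and have no test.

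The other genes of the pathway were read from 5 lists of 63 tested genes, of which 10 were called higher and 2 lower in limma, against 4.16% and 3.58% of all genes. The lists were chosen with earlier results of these data known. Counts of calls in these 5 lists, here and below, are therefore descriptions and no test of a list. Control 5 has no partner of its number. With it left out and the replicate number as a block, 22 of the 63 were called, against 16.7% of all genes. With control 5 left out and no block, 6 of the 63 were called, where the count over all genes was 672. Of the other ligands, Nrg1, a neuregulin that binds Erbb3 and Erbb4, was called higher. Its normalized counts were 29.6, 62.8, 51.1, 24.2 and 14 across controls 1 to 5, against 89.4, 348, 268 and 76.5 across Cosmc KO 1 to 4, with no overlap. The difference was 2.28 ± 0.55 (95% interval 1.05 to 3.52, adjusted p = 0.0367 in limma), and Cosmc KO 2 and 3 were again the highest. It was not called without control 1, 3, 4 or 5 or without Cosmc KO 2 or 3 (adjusted p = 0.0505 to 0.118 in limma), nor with the proximal tubule score (1.38, adjusted p = 0.0837) or the podocyte score (0.83, adjusted p = 0.541) as a covariate. Nrg4, an Erbb4 ligand, was not called (-0.26 ± 0.22, adjusted p = 0.453 in limma). Ereg, Epgn, Nrg2 and Nrg3 were not analysed here.

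Of 11 genes of ligand shedding, 4 were called higher and none lower in limma, against 4.16% and 3.58% of all genes. The groups did not overlap for 5 of the 11, against 11.9% of all genes tested. Since this list was chosen with earlier results of these data known, both counts only describe it. Adam12, a protease that can release Hbegf, rose from 2214 ± 446 to 5684 ± 1106 normalized counts (1.36 ± 0.17, adjusted p = 0.00181 in limma), with every Cosmc KO library above every control. Adam9 rose from 11129 ± 648 to 16583 ± 2103 normalized counts, also without overlap (0.57 ± 0.10, adjusted p = 0.00808 in limma). Both were called in all 25 alternatives. Adam15 (0.53 ± 0.12, adjusted p = 0.0288) and Rhbdf1, an inactive rhomboid that helps the protease Adam17 mature (0.45 ± 0.09, adjusted p = 0.0197), also rose in limma. The main shedding proteases Adam17 and Adam10 were not called, with differences of -0.11 ± 0.10 and -0.05 ± 0.09 (adjusted p = 0.471 and 0.733 in limma). Adam15 was not called without control 2, 4 or 5 or without Cosmc KO 2, 3 or 4 (adjusted p = 0.0531 to 0.086), nor Rhbdf1 without control 5 or without Cosmc KO 2, 3 or 4 (0.0524 to 0.068).

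Of 16 inhibitors of the receptors and of ERK, 3 were called higher and 2 lower in limma, against 4.16% and 3.58% of all genes. The list was mixed, with 7 positive and 9 negative differences and a median of -0.08. Errfi1, which binds and inhibits Egfr and its relatives, rose from 3037 ± 903 to 7685 ± 3257 normalized counts (1.28 ± 0.32, adjusted p = 0.0389 in limma), though the groups overlapped through Cosmc KO 4. Dusp6, a phosphatase of ERK that ERK activity induces, rose by 0.49 ± 0.10 (adjusted p = 0.0216 in limma). Spry2, a Ras pathway inhibitor named after its values were seen, rose by 0.43 ± 0.11 (adjusted p = 0.0413 in limma). Lrig2 and Socs4 fell by 0.52 ± 0.13 and 0.50 ± 0.10 (adjusted p = 0.0359 and 0.0186 in limma). Leaving out 1 library ended the calls of Errfi1 (control 1, 3, 4 or 5, Cosmc KO 2 or 3; adjusted p = 0.0672 to 0.123), of Lrig2 (control 1, 3, 4 or 5, Cosmc KO 2, 3 or 4; 0.0664 to 0.117) and of Spry2 (any but Cosmc KO 1; 0.0521 to 0.0893). It also ended those of Socs4 (Cosmc KO 3 or 4; 0.0509 to 0.0664) and Dusp6 (Cosmc KO 4; 0.0593).

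None of the 23 adaptors and kinases was called in limma, with 11 at an unadjusted p under 0.05, 1 called by edgeR, 1 by limma-voom, 4 by DESeq2 and 4 with the replicate block and control 5 left out. Over all genes limma gave 4603 of 16764 an unadjusted p under 0.05, and the shares called were 8.69% by edgeR, 9.91% by limma-voom, 16% by DESeq2 and 16.7% with that block. The 2 most abundant of them were Akt1 (0.29 ± 0.08, adjusted p = 0.0501) and Pik3r1 (0.23 ± 0.13, adjusted p = 0.264). Of 11 transcripts that ERK induces, 2 were called higher and none lower in limma, against 4.16% and 3.58% of all genes. Myc, a transcription factor, rose from 112 ± 19.2 to 355 ± 137 normalized counts (1.58 ± 0.26, adjusted p = 0.00745 in limma), without overlap and with Cosmc KO 2 and 3 highest (487 and 452). It was not called with Cre-carrying controls only (1.51, adjusted p = 0.0589), without Cosmc KO 2 and 3 (1.09, adjusted p = 0.0649) or with the podocyte score as a covariate (0.91, adjusted p = 0.128). Ier3, an immediate early gene, rose by 0.63 ± 0.13 (adjusted p = 0.019 in limma) and lost its call without Cosmc KO 2 or 4 (adjusted p = 0.0566 and 0.0568). Of the parietal epithelial markers 3 of 8 were called higher in limma (median 1.06), against 4.16% of all genes. Their summed normalized count was 9438 to 14525 in the controls and 17123 to 24497 in Cosmc KO. Of the macrophage and leukocyte markers 4 of 10 were called higher in limma (median 0.80), against the same share. These were Csf1r, C1qa, C1qb and C1qc. Of the 10, 8 had a positive and 2 a negative difference, Cd3e (-0.49) and Cd79a (-0.72), neither called. The sum of the 10 was 2668 to 6352 in the controls and 6186 to 7041 in Cosmc KO. No marker of either list was at 0, and the part of these cells in the pathway results was not tested.

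**Figure D4:**
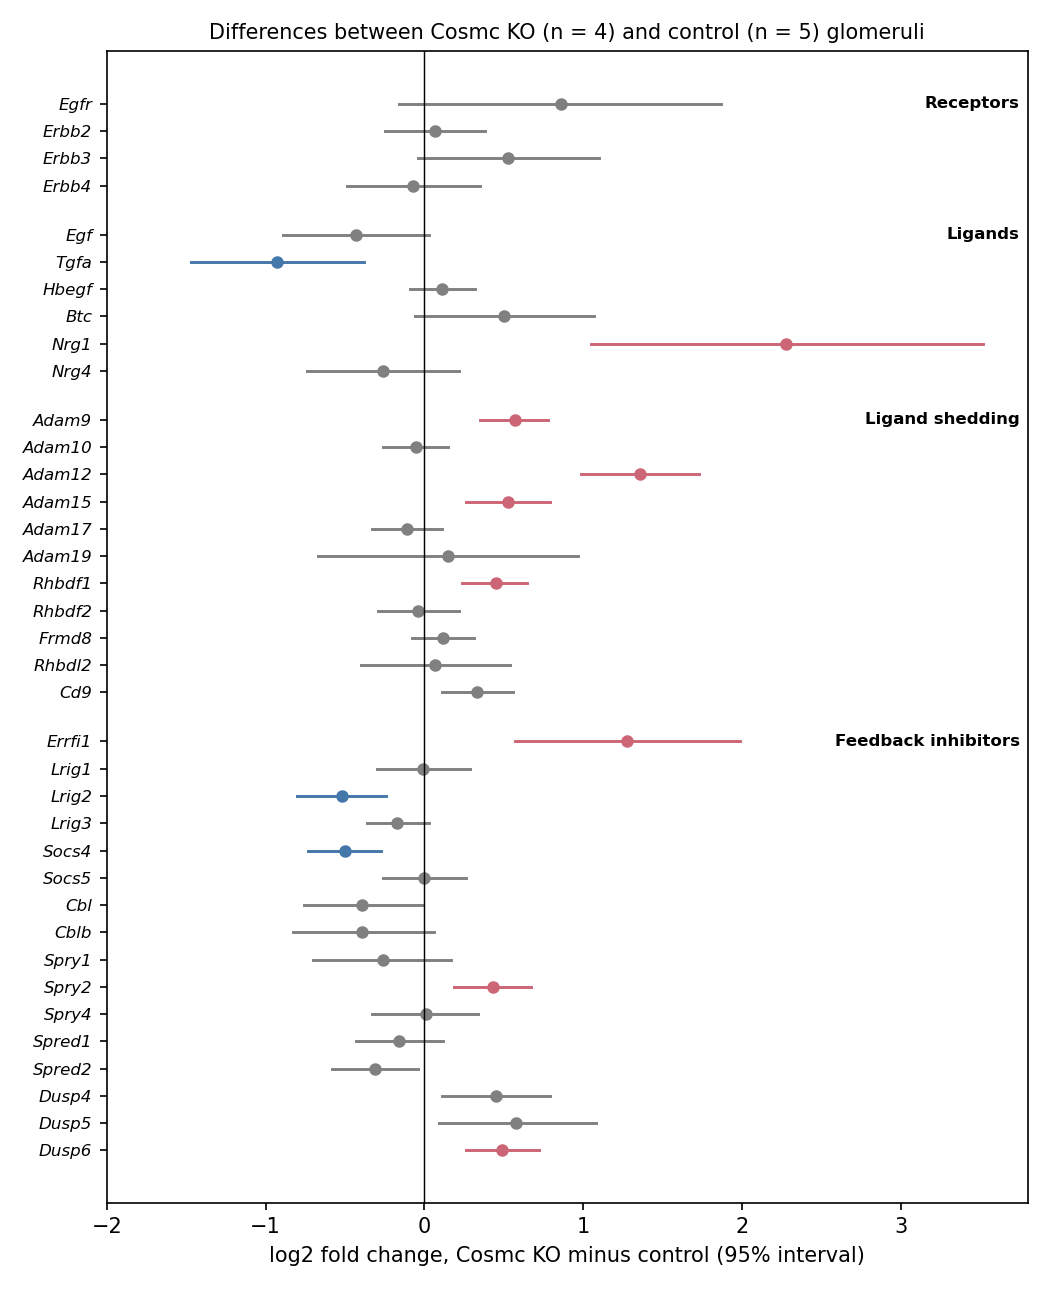
Difference in log2(value + 1), Cosmc KO minus control, with its 95% interval, for the members and the tested genes of the lists of other ligands, ligand shedding and feedback inhibitors. Blue marks genes called lower, red genes called higher and grey genes not called; Tgfa at -0.93 is the only called member, and Nrg1 at 2.28 has the largest difference shown.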

How the data were processed

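Each of the 9 libraries came from a separately numbered animal in the labels. Tools named in the submitters' processing notes are DESeq2, featureCounts, Subread 1.5.2 and STAR 2.5.2b, with the build GRCm38 and in roles not given in the sources used here. Values in the deposited sample columns are a signal: reads per gene that the authors scaled by 1 size factor per library, judged from the headers and the values. The lowest mean in the deposited table is 8.73. The authors' deposited log2 fold change, its Wald statistic (per the file headers, a score) and p-value were used only where named. Reads recovered from the scaled values came out whole, within a tolerance of 0.01, for 100% of values in each library. All pairs of libraries differed beyond counting noise, with a chi-square of at least 26.1 per degree of freedom.

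The main test was limma 3.58.1 (R 4.3.3) on log2(value + 1) with a mean-variance trend, a pseudocount of 1, for genes whose value reached 10 in 4 or more libraries, with group as the only term. This scale understates differences of low genes. Alternatives were edgeR 4.0.16 and DESeq2 1.42.0 (both on recovered reads), limma-voom, TMM rescaling, no filter or a minimum of 50, pseudocounts of 0.5 and 4, the replicate block without control 5, age, Cre-carrying controls only, tubule marker scores as covariates, leaving out each library, and leaving out Cosmc KO 2 and 3. The podocyte score covariate and the count of calls in the authors' deposited test were added after seeing the data. The podocyte score was itself lower in Cosmc KO, with overlap of the groups only through Cosmc KO 1. Fits with this covariate, for any gene, therefore cannot tell the score from the group. A marker score is the mean log2(value + 1) of a list.

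Same-numbered animals share an age, and the deviations of same-numbered libraries from their group means correlated at 0.54, 0.51, 0.34 and 0.27, so a paired fit was kept as an alternative. Differently numbered libraries correlated as highly in part (Cosmc KO 3 with control 2 at 0.53, Cosmc KO 1 with control 5 at 0.34, Cosmc KO 4 with control 5 at 0.33, Cosmc KO 2 with control 3 at 0.31), so the correlations do not show pairing by themselves. The main test is unpaired, and the paired fit uses numbers 1 to 4 without control 5. Exon lengths and coordinates are from GENCODE M21 and promoter windows from RefSeq (GRCm38.p6). The members and lists were chosen with earlier results of these data known. Named genes were the members, up to 4 called genes of each pathway list by size of change or its 2 most abundant, the 2 most abundant genes of each marker list, which are given here only through their lists, and the 2 genes closest in pattern to each member among genes with a mean of at least 100. The distance is the mean absolute difference of values standardized over the libraries.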

Additional observations from a re-analysis of the deposited data

Results flagged for a closer look

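Ier3 had a normalized count of 3203 in control 2, while the other 4 controls lay between 2291 and 2469. The library was singled out because its gap to the nearest control was 0.805 of the range of the controls, above the critical value of 0.71 for 5 samples. This was the only such case among 46 groups tested, and chance alone is expected to single out about 5% of groups.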

How the results depend on the processing

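Of the 8 members' values under 25 alternatives each, 175 kept direction and side of the threshold, 12 lost a call, 4 gained one and 9 changed sign. Egf and Hbegf kept direction and side in all 25. No member was called higher with all 9 libraries and group alone, but 3 were with the thick limb and distal convoluted tubule score as a covariate, and 0 to 1 when a library was left out. The 1 member called lower became 0 with the proximal tubule score, the podocyte score, Cosmc KO 2 and 3 left out, and Cre-carrying controls only, and was 0 to 1 when a library was left out. Changes of sign were Erbb2 at -0.11 (proximal tubule score), -0.05 (without Cosmc KO 2, in a range of -0.05 to 0.21 when a library was left out), -0.17 (Cosmc KO 2 and 3 left out) and -0.28 (podocyte score). They also were Egfr at -0.06 (Cosmc KO 2 and 3 left out) and -0.50, Erbb3 at -0.20, Btc at -0.15 and Erbb4 at 0.09 (podocyte score).

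Over all genes 1298 were called. The count was 2679 with DESeq2 and also in the authors' deposited test, 2793 with the replicate block and control 5 left out (672 without control 5 and no block), 428 with Cre-carrying controls only, 838 with the proximal tubule score, 5570 with the thick limb score, 267 without Cosmc KO 2 and 3, 364 with the podocyte score, and 473 to 4850 when a library was left out. Of the pathway genes 12 were called. This became 19 with DESeq2 and in the authors' deposited test, 22 with the replicate block and control 5 left out (6 without control 5 and no block), 4 with Cre-carrying controls only, 5 with the proximal tubule score, 29 with the thick limb score, 3 without Cosmc KO 2 and 3, 3 with the podocyte score, and 5 to 26 when a library was left out. The cause was not tested. With the replicate block and control 5 left out Tgfa was -0.90 (adjusted p = 0.0035 in limma), and no member's call differed from the fit of all 9 libraries; without control 5 and no block Tgfa was also -0.90 (adjusted p = 0.104). Btc had 67 to 205 reads per library, the fewest of the members.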
